A study of Saccharomyces cerevisiae with 5 samples.

Results

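The hexose carriers and glucose sensors of budding yeast were followed through copper exposure, as a set of 10 genes taken by symbol: the carrier genes HXT1 to HXT8 and the sensor genes SNF3 and RGT2. Of the 10 genes, 9 had a named probe among the 5379 genes of the array, and 8 had a value on all 3 arrays and entered the test, which covered 4824 genes. No probe was named SNF3, which was not analysed here, and HXT6 held values on arrays 2 and 3 only. Saccharomyces cerevisiae S288C, the laboratory reference strain, was grown with shaking at 25 °C in YPD, a rich medium with 2% glucose, 2% polypeptone and 1% yeast extract. At an optical density of 1, during exponential growth, copper(II) sulfate was added to 10 mM for 2 h, and control cells were grown for a further 2 h with nothing added. PolyA RNA of copper-treated cells (Cy5) and of control cells (Cy3) was hybridised together on each of 3 arrays, which the series description calls independent biological samples. No array had the dyes exchanged, and a bias of the dyes at a gene therefore cannot be told apart from copper's effect. The glucose left in either culture at harvest is not given in the sources used here.

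Yeast takes up glucose by facilitated diffusion through a family of hexose carriers. HXT1 and HXT3 encode low-affinity carriers that work at high glucose, HXT2, HXT6 and HXT7 encode high-affinity carriers that are normally made when glucose is scarce, and HXT4 and HXT5 are usually placed between them. Snf3 and Rgt2 are transporter-like proteins of the plasma membrane that bind glucose without carrying it and signal, through the proteins Mth1 and Std1, to the HXT repressor Rgt1. HXT6 and HXT7 are near-identical copies, and the carriers as a family are similar in sequence, so their spots may share signal.

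Each value is the log2 of a ratio between the dyes, read as copper over control. That direction is likely rather than stated. Its basis is that the labels list the copper channel ahead of the control channel, and it puts CUP1-1, the copper-induced metallothionein gene, at 4.33 ± 1.53 (SD, n = 3) and CTR1, the copper transporter gene, at -3.13 ± 0.95. Under the other direction every rise and fall given here would change places. The scans of arrays 1 to 3 that were used held values for 5367 spots on array 1, 5264 (high laser power) and 2853 (low) on array 2 and 5952 (high) on array 3, of 6912. Across genes, which are not independent replicates, Pearson's r was between 0.61 and 0.69 for the 3 pairs of arrays. The medians of the 4824 tested genes were -0.027, -0.078 and -0.0090, and the spread of ratios was narrowest on array 3 (SD 0.48, against 0.58 and 0.66 on arrays 1 and 2).

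The comparison asked how messenger RNA of the carriers and of the sensor differed between copper-treated and untreated cells. HXT2, HXT4 and HXT8 fell, and no listed gene rose past the threshold. By limma's moderated test of the mean against 0 (p-values adjusted by Benjamini-Hochberg over all 4824 genes, threshold 0.05), 3 of the 8 tested genes were lower and 0 higher. Over all tested genes 12.0% were lower and 11.5% higher (23.5% in either direction), and 1940 genes had an unadjusted p under 0.05. With array 2 left out 1 of the 8 was lower, HXT2, while over all genes 218 were lower, against 578 with all 3 arrays. In RNA from a whole culture, a lower level in every cell and fewer cells with the transcript cannot be told apart.

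**Figure D1:**
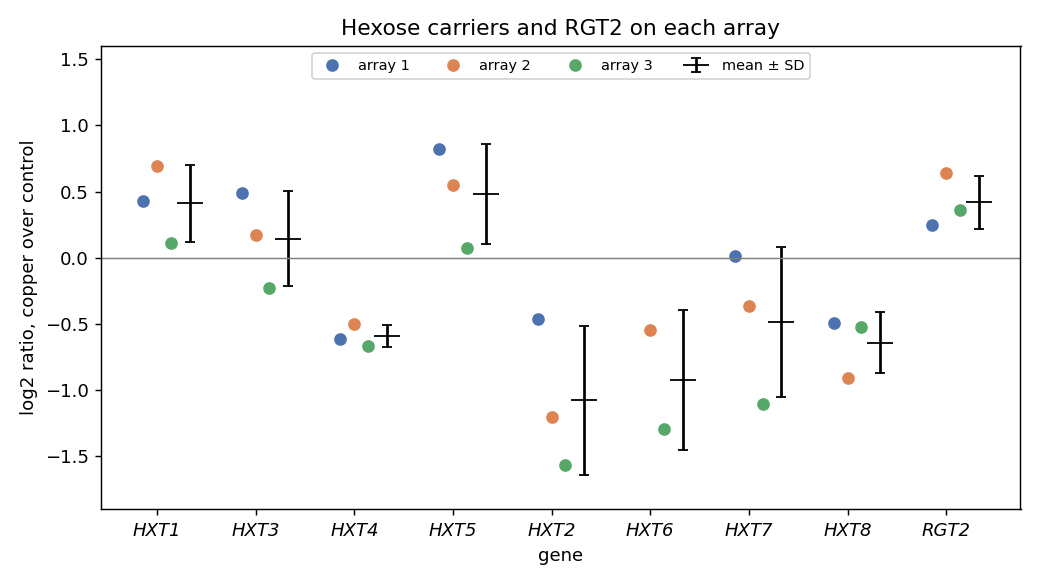
Log2 ratios of copper over control for the 9 listed genes with a probe, by array (coloured points), with the mean and SD over the arrays (black, 3 arrays, or 2 for HXT6). HXT4 lies between -0.67 and -0.50 on every array, whereas HXT2 and HXT7 spread over more than 1 log2 unit, with array 3 lowest.

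Among the high-affinity carriers, HXT2 (YMR011W) read -0.46, -1.20 and -1.57 on arrays 1, 2 and 3. All 3 values were below 0 and the fall on array 1 was the smallest. The mean was -1.08 ± 0.56 (SD, n = 3), or 2.11-fold lower (limma adjusted p = 0.0139), and its mean was the 66th lowest of the 4824 tested genes. On array 3 its ratio was the 10th lowest of all tested genes, on array 1 the 885th. HXT2 stayed past the threshold in all 12 alternatives in which it held a value on every array used, with means from -1.38 to -0.83.

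HXT7 (YDR342C) read 0.014, -0.37 and -1.10 on arrays 1, 2 and 3. The arrays thus ran from a value near 0 to one below -1. The mean of -0.49 ± 0.57 did not pass (limma adjusted p = 0.129, 95% interval of the mean -0.98 to 0.0080). Without array 1 it passed (-0.74, limma adjusted p = 0.0488), in a fit where all genes shared a single variance. The gap between HXT7's values on arrays 2 and 3 therefore did not enter that p. Its near-identical copy HXT6 (YDR343C) read -0.55 and -1.30 on arrays 2 and 3 and held no value on array 1. HXT7 exceeded HXT6 by 0.18 and 0.19 on those arrays, so both spots gave nearly the same ratio. Whether they share signal was not tested. HXT6 had a mean of -0.92 ± 0.53 (SD, n = 2) and passed once genes with values on 2 arrays were admitted (limma adjusted p = 0.0411).

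Neither low-affinity carrier passed the threshold. HXT1 (YHR094C), the carrier gene induced most by plentiful glucose, read 0.43, 0.69 and 0.11. All 3 values were above 0, array 3 least so. The mean was 0.41 ± 0.29, or 1.33-fold, and did not pass the adjusted threshold (limma adjusted p = 0.0986, 95% interval 0.037 to 0.79). HXT3 (YDR345C), whose transcript is induced over a wide range of glucose, read 0.49, 0.17 and -0.22. The arrays disagreed in sign, with a mean of 0.14 ± 0.36 (limma adjusted p = 0.567, 95% interval -0.25 to 0.54), which turned to -0.026 without array 1 (adjusted p = 0.969).

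Set against each other within an array, the low-affinity carriers had the higher ratios. The median of HXT1 and HXT3 was 0.46, 0.43 and -0.056 on arrays 1, 2 and 3. The median of HXT2, HXT6 and HXT7 was -0.22, -0.55 and -1.30, the first of them without HXT6. Low minus high was thus 0.68, 0.98 and 1.24, above 0 on 3 of 3 arrays, with a mean of 0.97 ± 0.28. Among the 6 pairs of a low- with a high-affinity gene, 16 of 16 array values were above 0, from 0.41 for HXT1 minus HXT7 on array 1 to 1.90 for HXT1 minus HXT2 on array 2. The pairs share genes and arrays, so the 16 values are not independent and only the 3 arrays are replicates. No p is given for this summary over chosen genes, and an exact two-sided sign-flip test of 3 arrays cannot go below 0.25. Left without HXT6 throughout, the mean was 1.06 ± 0.33, and over the 11 alternatives that gave a value of their own it ranged from 0.83 to 1.11.

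**Figure D2:**
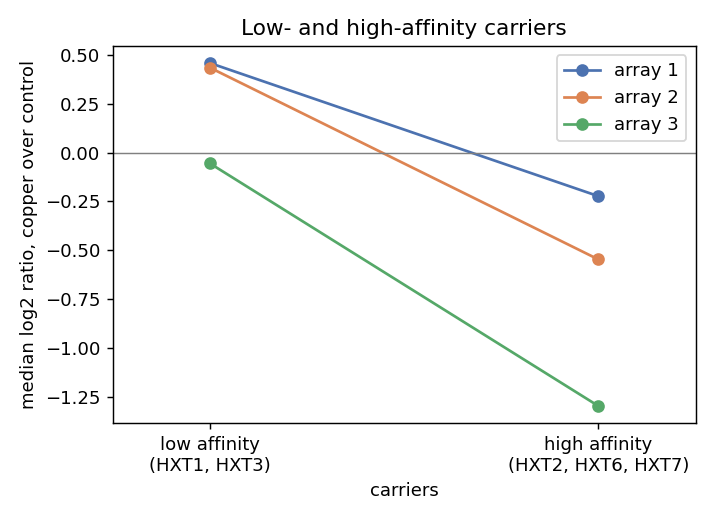
Median log2 ratio (copper over control, vertical axis) of the low-affinity carriers HXT1 and HXT3 and of the high-affinity carriers HXT2, HXT6 and HXT7, joined for each array. Every line descends, by 0.68, 0.98 and 1.24, and the line of array 3 lies below the others.

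The intermediate carriers had means of opposite sign. HXT4 (YHR092C), a carrier gene repressed at high glucose, read -0.61, -0.50 and -0.67, the closest agreement between arrays among the listed genes. Its mean was -0.59 ± 0.08, or 1.51-fold lower (limma adjusted p = 0.0233). The call was lost without array 1, 2 or 3 (adjusted p = 0.138, 0.0530 and 0.0503), although the mean stayed between -0.64 and -0.56. HXT5 (YHR096C), a carrier gene linked to slow growth and poor carbon sources, read 0.82, 0.55 and 0.071. All 3 values were above 0, with array 1 highest and array 3 near 0. The mean was 0.48 ± 0.38, or 1.40-fold (limma adjusted p = 0.0811, 95% interval 0.074 to 0.89), and passed without array 3 (0.69, adjusted p = 0.0261) and with array weights (0.61, adjusted p = 0.0226).

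HXT8 (YJL214W), a family member whose affinity is not assigned here, read -0.49, -0.91 and -0.52. All 3 values were below 0, array 2 the lowest. On arrays 2 and 3 it held a value on the high-power scan alone, as did 2233 and 1271 genes in all. It fell 1.56-fold (-0.64 ± 0.23, limma adjusted p = 0.0239), and the call was lost without array 1 (adjusted p = 0.0577) and without array 2 (0.0918).

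The sensor gene RGT2 (YDL138W), whose product responds to high glucose, read 0.25, 0.64 and 0.36. All 3 values were above 0 and array 2 was highest. The mean of 0.42 ± 0.20, or 1.34-fold, did not pass (limma adjusted p = 0.0782, 95% interval 0.069 to 0.77), and it passed once ratios were corrected for gene length (0.51, adjusted p = 0.0496).

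Ordered by mean ratio from the lowest, the genes ran HXT2, HXT6, HXT8, HXT4, HXT7, HXT3, HXT1, RGT2 and HXT5. The mean of HXT6 covered arrays 2 and 3 only, those of the other genes all 3. Without array 1 the mean of HXT7 was -0.74, below HXT8 (-0.72) and HXT4 (-0.58). Of the 8 steps between neighbours, taken within arrays, 2 exceeded their own SD: HXT6 over HXT2 (0.46 ± 0.27, n = 2) and HXT3 over HXT7 (0.63 ± 0.22, n = 3). The other steps, such as RGT2 over HXT1 (0.0058 ± 0.22), were within the spread between arrays.

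Array 3 gave the lowest ratio for 6 of the 8 tested genes, HXT1, HXT2, HXT3, HXT4, HXT5 and HXT7, against 32.3% of all tested genes. The median of the 8 genes was 0.13, -0.097 and -0.37 on arrays 1, 2 and 3. The part of that array in the means was not tested beyond leaving it out, which moved HXT2 to -0.83 (adjusted p = 0.0209) and HXT7 to -0.18 (adjusted p = 0.537). On array 2, HXT2, HXT3, HXT6 and HXT7 held a value on the low-power scan alone, as did 60 genes in all. Per the labels that scan was made for spots brighter than the scanning range. On array 3, whose low-power scan the submitters set aside, the low-power ratio was the lower for each of the 8 listed genes that held both. The largest difference was 0.263, for HXT3, where the median absolute difference over all genes with both scans was 0.147.

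**Figure D3:**
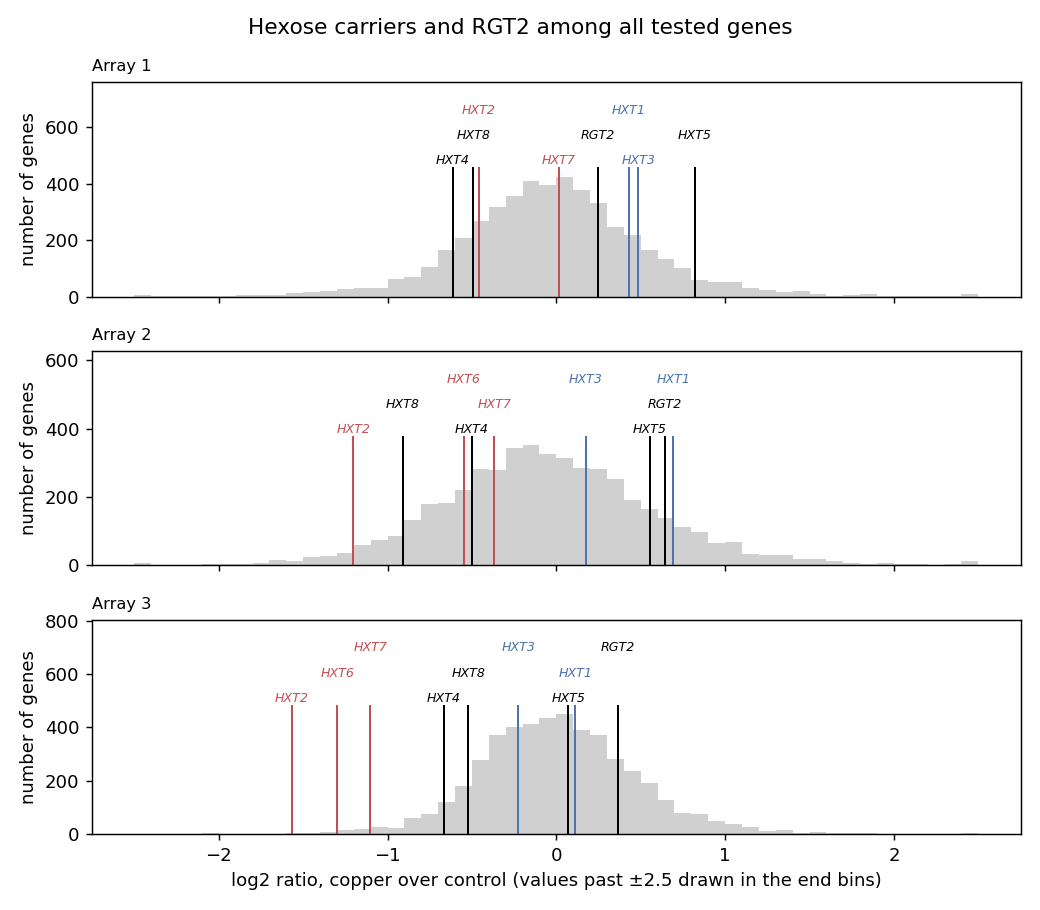
Number of tested genes (grey, vertical axis) by log2 ratio of copper over control (horizontal axis) on each array, with the listed genes as lines (high-affinity carriers red, low-affinity carriers blue, the rest black). On array 3 the red lines at -1.57, -1.30 and -1.10 lie in the lower tail, whereas on array 1 HXT7 lies at 0.014, in the middle of all genes.

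Of the listed carriers, 6 lie near each other in a pair of clusters, and HXT2 and HXT8 lie apart. In the order HXT4, AHT1, HXT1 and HXT5, HXT4 fell whereas HXT1 and HXT5 had means above 0. In the order HXT7, HXT6, YDR344C and HXT3, HXT7 and HXT6 had means below 0 and HXT3 a mean of 0.14. Nearest to HXT2 by Euclidean distance over the 3 array ratios were AIM41 (0.22), HSP82 (0.22), an Hsp90 chaperone gene, and VIR1 (0.24). Nearest to HXT5, the highest of the listed genes, were ITC1 (0.072), MRPL4 (0.12) and LDS2 (0.13).

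Of 8 other hexose carriers tested, 1 rose and 0 fell, where 11.5% of all tested genes were higher, and their median was 0.11, against -0.044 over all tested genes. HXT9 read 0.73, 1.52 and 0.13, with a mean of 0.79 ± 0.70 (limma adjusted p = 0.0497), and its call was lost without array 2 (0.43, adjusted p = 0.185). HXT11, a near-identical copy of HXT9 and named here after its values were seen, read 0.98, 1.56 and -0.040 (0.83 ± 0.81, adjusted p = 0.0575). GAL2, the galactose permease gene, had a mean of -0.20 ± 0.14 (adjusted p = 0.350).

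In the list for the pathway from the sensors to Rgt1, which includes RGT1 itself, CYC8 and TUP1, 3 of 8 genes fell and 0 rose. The median of the list was -0.28, where 12.0% of all tested genes were lower and 11.5% higher. STD1 and MTH1, which encode the paired co-regulators that glucose signalling destroys, read -0.63, -0.69 and -0.41 (-0.58 ± 0.14, limma adjusted p = 0.0279) and -0.18, -0.77 and -0.67 (-0.54 ± 0.32, adjusted p = 0.0497). YCK2, a casein kinase of the plasma membrane that acts with the sensors, had a mean of -0.57 ± 0.23 (adjusted p = 0.0336). MTH1 was lost without any of the 3 arrays, and STD1 and YCK2 without array 1 or 2. RGT1 itself had a mean of -0.25 ± 0.17 (adjusted p = 0.253).

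In the pathway of the Snf1 kinase and the glucose repressor Mig1, 1 of 13 rose and 2 fell, with a median of -0.077, a share close to the 23.5% called over all tested genes. MIG2, a glucose-induced repressor gene related to MIG1, read 0.51, 0.96 and 0.61 (0.69 ± 0.24, limma adjusted p = 0.0192, and 0.0719 without array 2). GLC7, the phosphatase that counters Snf1, fell by 0.61 ± 0.18 (adjusted p = 0.0247) and SNF4, the activating subunit of Snf1, by 0.54 ± 0.28 (adjusted p = 0.0455). Both were lost without array 1 or 2, and GLC7 without array 3 as well. MIG1 had a mean of -0.085 ± 0.35 (adjusted p = 0.743).

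Of the cyclic AMP and protein kinase A genes, 9 of the 15 listed were tested, 1 rose and 4 fell, with a median of -0.41, against 11.5% higher and 12.0% lower over all tested genes. RGS2, which restrains the G protein Gpa2 of the glucose receptor, read 1.81, 1.36 and 1.26 (1.47 ± 0.29, 2.78-fold, limma adjusted p = 0.00167). RAS1, a GTPase that stimulates adenylate cyclase, read -1.08, -1.24 and -0.88 (-1.07 ± 0.18, 2.09-fold lower, adjusted p = 0.00388). RAS2 fell by 0.71 ± 0.33 (adjusted p = 0.0229) and TPK2, a catalytic subunit of the kinase, by 0.57 ± 0.29 (adjusted p = 0.0388). RAS2 was lost without array 2 and TPK2 without array 2 or 3. The remaining gene that fell, PDE2, had a mean of -0.49 ± 0.20 (limma adjusted p = 0.0497) and was not followed through the alternatives.

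Among the genes that phosphorylate hexoses, 1 of 4 fell and 0 rose, too few to set against the 12.0% of all tested genes. EMI2, related to the glucokinase gene GLK1, read -0.89, -1.19 and -1.37 (-1.15 ± 0.24, 2.21-fold lower, limma adjusted p = 0.00351), while HXK2, the main hexokinase at high glucose, had a mean of 0.013 ± 0.34 (adjusted p = 0.965). Of 13 tested genes that glucose represses, 0 rose and 1 fell, with a median of -0.051, where 23.5% of all tested genes were called. The gene that fell was CAT8, an activator of gluconeogenesis (-0.56 ± 0.19, adjusted p = 0.0329, and lost without array 1 or 2). The number called in this list was unstable, from 0 without array 1 to 4 with array weights. In all, 578 and 1616 genes were called in those fits. Among other alternatives, it was also 0 with both scans averaged on arrays 2 and 3, where 1105 genes were called. SUC2, the invertase gene, read -1.12, -0.033 and -0.16 (adjusted p = 0.176).

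Of 9 tested genes for the endocytosis of carriers, 1 rose and 2 fell around a median of -0.045, against 11.5% higher and 12.0% lower over all tested genes. ROG3, an arrestin-related adaptor of the ubiquitin ligase Rsp5, read 1.34, 1.30 and 0.71 (1.12 ± 0.35, 2.17-fold, limma adjusted p = 0.00520). END3, needed for endocytosis, fell by 0.88 ± 0.55 (adjusted p = 0.0235, and 0.0721 without array 2), and RSP5 by 0.61 ± 0.11 (adjusted p = 0.0227, and 0.150 without array 1).

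**Figure D4:**
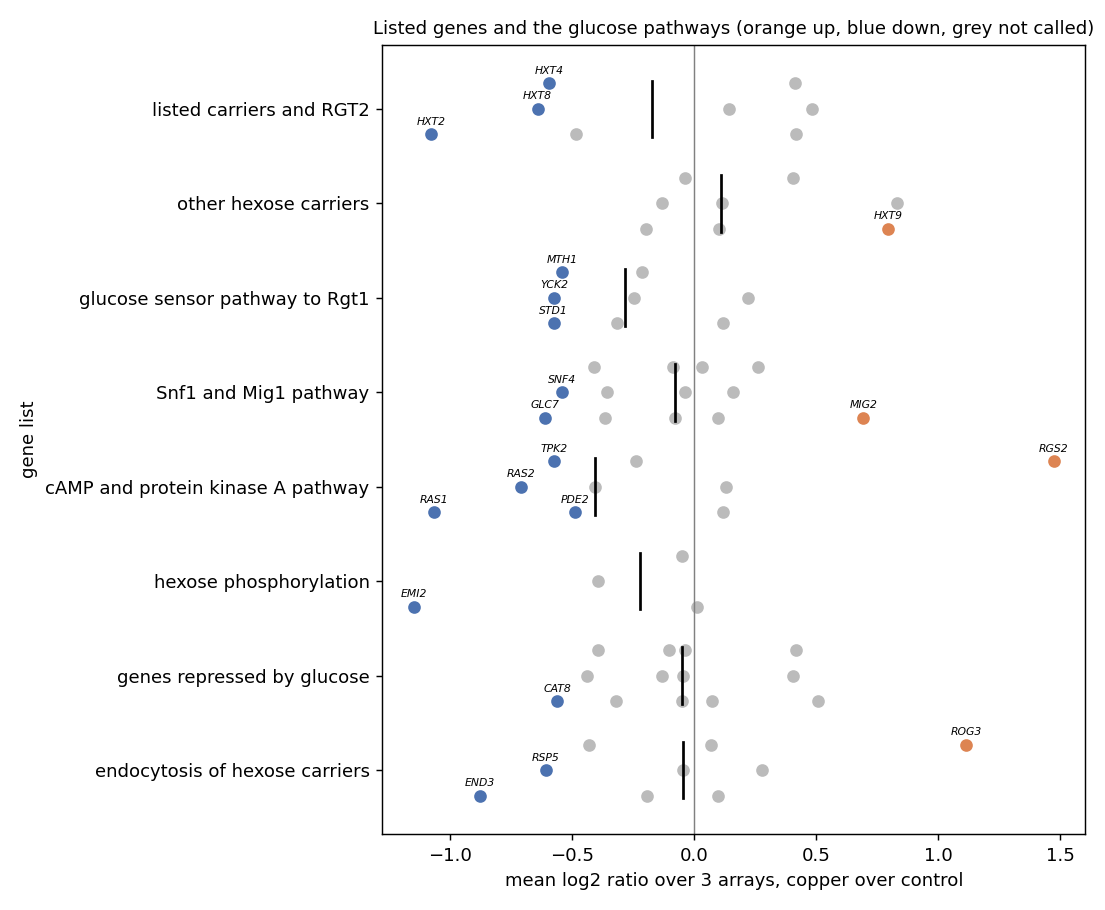
Mean log2 ratio over 3 arrays (copper over control, horizontal axis) of each tested gene of the listed carriers with RGT2 and of 7 glucose-related lists, with each list's median as a black bar. Genes past the threshold are orange (higher) or blue (lower) and named, and grey points did not pass.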

How the data were processed

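The deposited values were log2 ratios per spot. LOWESS normalization had been run by the authors on the spots with flag value 0, as the labels say. No source names the log base, and base 2 was read from the lowest value, -6.64, the log2 of 0.01. Scale and centring were thus known, and direction only likely. The scan medians were -0.0053, -0.023, -0.025, -0.013 and -0.0017 (array 1, array 2 high and low power, array 3 high and low). Apart from laser power and the purpose of the low-power scan, how the images were scanned, quantified and corrected for background is not given in the sources used here. Array 2 was the mean of its scans, or the scan that held a value, and array 3 its high-power scan, since the series description set the other aside.

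Of 6912 probes, 5446 had 1 gene symbol, 0 several and 1466 none. All names came through the yeast gene table (assembly R64), with 0 changed, and no coordinates are given. Probes of a gene were averaged. Genes without a value on all 3 arrays (555) were not tested. The mean was tested against 0 with limma 3.58.1 in R 4.3.3 (lmFit, eBayes, two-sided, Benjamini-Hochberg, 0.05). Intervals of 95% are limma's, unadjusted. The labels do not say whether each array had its own control culture, so p-values measure the spread between arrays, whose number limits the precision. On simulated data of 4824 genes, 200 of them changed and with independent normal noise, 9.40% of genes given a log2 change of 0.5 were called. With a change of 1, 84.3% were called, and with 2, 99.8%, while 5.65% of calls were false. In the data 1134 genes were called, far more than were changed in the simulation, so these shares need not hold for this fit.

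The genes and the pathway lists were chosen with earlier results of these data known. Named are the 10 genes, up to 4 called genes per list with the largest means, and the 3 genes nearest to the highest and lowest. RGT1, MIG1, HXK2, SUC2, GAL2, HXT11 and PDE2 were named after their values were seen. Alternatives were other joins of scans, centring, scaling, missing values, variance, weights, length (loess, span 0.4, degree 1) and arrays left out.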

Additional observations from a re-analysis of the deposited data

How the results depend on the processing

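Each array left out in turn gave between 494 and 1211 called genes of 4824, against 1134 with all 3, with 276 to 573 higher and 218 to 638 lower. The fit without array 1 had infinite prior degrees of freedom, so all genes shared a single variance. The listed genes called numbered 1 to 3 (1 to 2 lower and 0 to 1 higher), and the pathway genes 5 to 15, against 17 of 63. The means with an array left out ran from -0.64 to -0.56 for HXT4, -0.72 to -0.51 for HXT8, 0.31 to 0.69 for HXT5, -0.74 to -0.18 for HXT7 and -0.026 to 0.33 for HXT3, whose sign changed. With array 2 read from its low-power scan only, 349 genes were lower, against 578, from fewer genes tested, and HXT8 held no value. With its high-power scan alone HXT2, HXT3 and HXT7 held no value, and low minus high affinity could not be computed. One listed gene was higher with array weights (HXT5, 0.61) and 1 with the length correction (RGT2, 0.51), which had no value for HXT6. HXT6 passed at -0.92 with genes on at least 2 arrays. The cause was not tested. Among pathway genes RGS2, EMI2 and ROG3 passed in 13 of 13 alternatives and RAS1 in 12 of 12, whereas HXT9 passed in 8 of 12, MTH1 in 5 of 13, SNF4 in 7 of 13, CAT8 in 7 of 12, TPK2 in 9 of 13 and YCK2 in 9 of 12. Low minus high affinity was between 0.83 and 1.11 in the 11 alternatives that gave a value of their own, of which leaving out HXT6 was chosen after the data were seen. Centring, the robust variance and genes on 2 arrays cannot move it, and array weights were not applied to it.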
